A study of Mus musculus with 112 samples.

Results

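The conjugation enzymes described here are the UDP-glucuronosyltransferases of the Ugt1, Ugt2 and Ugt3 groups, the glutathione S-transferases, the microsomal glutathione S-transferases and the sulfotransferases. Members were all genes whose symbol begins with Ugt1, Ugt2, Ugt3, Gsta, Gstm, Gstp, Gstt, Gsto, Gstk, Gstz, Mgst or Sult and that have a probe set listed under that 1 symbol, with the brightest probe set taken for a gene with several. This gave 48 of the 19938 genes measured: 10 Ugt genes (8 Ugt2, 2 Ugt3), 19 cytosolic or mitochondrial Gst genes, 3 Mgst genes and 16 Sult genes. The Ugt1a genes share 1 probe set that carries all of their symbols, so no Ugt1 gene entered. Probe sets naming Gsta1 with Gsta2, Gstp1 with Gstp2, Ugt2a1 with Ugt2a2 and several Sult2a genes together were left out for the same reason. So were those naming both Ugt3a1 and Ugt3a2, and each of these genes entered by a probe set of its own. Ugt2b, Ugt3a, Sult2a and Gstp genes have close relatives, and whether their probes also bind a relative was not tested.

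The tissue was epididymal white adipose tissue (WAT, the fat pad beside the epididymis) of male mice, with 1 mouse on each Affymetrix Gene 1.0 ST array. Each of 7 strains had 8 control mice and 8 mice under caloric restriction (CR), 112 arrays in all. The strains were 129S1/SvImJ, C57BL/6J (labelled C57BL6/J), B6C3F1/J (the hybrid of C57BL/6J and C3H/HeJ), C3H/HeJ, CBA/J, DBA/2J and BALB/cJ (labelled Balbc/J). The labels name no genetic change or drug in any group. All mice arrived at 6 weeks of age, were housed singly, ate an AIN93M-based diet before the study, began the control or the restricted diet at 8 weeks and were killed at 22 weeks after an overnight fast. BALB/cJ mice were given more food than the others, so that their CR ration equalled what the other controls received, and the 129S1/SvImJ and C57BL/6J CR mice were restricted further in the later weeks. Values are log2 signals, so a difference of 1 is a doubling.

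Conjugation makes a compound more soluble and readier for export. UGT enzymes attach glucuronic acid or another sugar, glutathione S-transferases (GSTs) join glutathione to reactive electrophiles such as lipid aldehydes, and SULT enzymes transfer a sulfate group to steroids, phenols and catecholamines. The UGT2 and SULT2A enzymes are known above all from liver. GSTs are abundant in many tissues, and in fat GSTA4 is known for clearing 4-hydroxynonenal, an aldehyde from oxidised lipid. Several GST genes are textbook targets of the transcription factor Nrf2, which binds the antioxidant response element.

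The adipocyte markers were high throughout, with a median over the 9 measured of 12.78. Hepatocyte markers were also detected and spread widely: the mean of the 9 measured (Alb, Apoa1, Apoa2, Ahsg, Ttr, Fga, Fgb, Fgg and Apoh) ran from 6.46 to 11.87 between arrays, and Alb averaged 11.44. This mean lay between 7.06 and 11.11 in the 129S1/SvImJ control mice and between 6.48 and 8.69 in the CR mice of that strain, and 8 of the 9 markers were lower on CR across strains (limma, adjusted p under 0.05). On 8 arrays (2 DBA/2J control, and 2 CR arrays each of C57BL/6J, CBA/J and DBA/2J) the mean of the 20 epididymis markers measured was over 1 log2 unit above the median of all arrays, with 1 C57BL/6J CR array at 11.30 against that median of 5.03. Of the 10 testis germ cell markers, 5 were higher on CR across strains. Their mean lay between 5.81 and 6.90 in the DBA/2J control mice and between 6.00 and 8.43 in the DBA/2J CR mice. In bulk tissue, fewer cells of a type and less RNA per cell cannot be told apart.

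Promoters are shown for Gsta3 and Mgst2, the members with the largest rises on CR, for Gstm1, called lower in the most strains, and for Ugt2b1, with the largest fall among the Ugt genes. Their probe sets are 10345065, 10491952, 10501229 and 10531041. RefSeq (GRCm38.p6) gave promoters for 44 of the 48 members, 56 in all. Gsta4, Gstt2, Sult4a1 and Ugt3a2 had none in the table. The 250 bases before the start are printed 5′ to 3′ on the gene's strand, and capitals mark matches, on either strand, to TGACNNNGC, the core of the antioxidant response element, or TATAAA, the TATA box. The windows are chr1:21240335-21240584 on the plus strand for Gsta3, chr3:51660929-51661178 on the plus strand for Mgst2, chr3:108017819-108018068 on the minus strand for Gstm1, which has 2 starts of which the one with a match is shown, and chr5:86926504-86926753 on the minus strand for Ugt2b1.
Gsta3: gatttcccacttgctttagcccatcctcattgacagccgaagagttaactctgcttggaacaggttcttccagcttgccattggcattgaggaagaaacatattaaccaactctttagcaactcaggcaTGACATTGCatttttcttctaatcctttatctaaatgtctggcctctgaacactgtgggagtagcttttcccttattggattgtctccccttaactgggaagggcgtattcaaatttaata
Mgst2: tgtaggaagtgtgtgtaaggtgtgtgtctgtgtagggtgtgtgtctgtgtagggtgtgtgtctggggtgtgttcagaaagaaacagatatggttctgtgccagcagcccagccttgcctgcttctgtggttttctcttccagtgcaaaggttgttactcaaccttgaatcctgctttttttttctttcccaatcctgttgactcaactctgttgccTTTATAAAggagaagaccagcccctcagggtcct
Gstm1: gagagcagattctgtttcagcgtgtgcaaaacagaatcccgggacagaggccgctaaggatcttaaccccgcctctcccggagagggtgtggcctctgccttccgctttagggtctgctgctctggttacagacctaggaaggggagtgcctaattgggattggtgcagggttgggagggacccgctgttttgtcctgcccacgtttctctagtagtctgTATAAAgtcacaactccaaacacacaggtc
Ugt2b1: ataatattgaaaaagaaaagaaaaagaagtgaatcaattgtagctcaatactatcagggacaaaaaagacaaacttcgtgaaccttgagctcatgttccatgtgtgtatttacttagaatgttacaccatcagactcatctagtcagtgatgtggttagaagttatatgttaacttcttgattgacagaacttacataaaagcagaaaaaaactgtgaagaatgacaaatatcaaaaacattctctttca
The element core lay 121 bases before the start of Gsta3, and 4 of the 56 member promoters (7.14%, those of Gsta3, Gstm5, Gstm7 and Mgst1) held it against 10.2% of all 32851 promoters. The TATA box began 30 bases before the printed start of Gstm1. In Mgst2 the capitals are overlapping matches on both strands, the first 34 bases before the start. It was held by 10 member promoters (17.9%) against 12.4% of all. Neither motif was found in the printed window of Ugt2b1.

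The first question was which of these genes CR changed over the strains. The GST genes split, with Gsta3, Gsta4, Gstm5, Gstz1 and Gstt4 higher on CR together with Mgst2, while Gstm1, Gstm3, Gstm4, Gstt1, Gstt2 and Gstt3 were lower. Of the 10 Ugt genes, 8 were lower and none higher, and among the 16 Sult genes Sult1e1 and Sult2a8 were lower and Sult2b1 and Sult3a2 higher. In all, 8 members were higher (21.9% of all genes were), 16 were lower (22.0% of all genes) and 24 were not called, against 43.9% of all genes called in either direction. The mean of the 7 within-strain differences was tested by limma with Benjamini-Hochberg adjusted p under 0.05. The median change was -0.03 over the members and 0.01 over all genes, and the 24 members not called lay between -0.23 and 0.31.

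**Figure D1:**
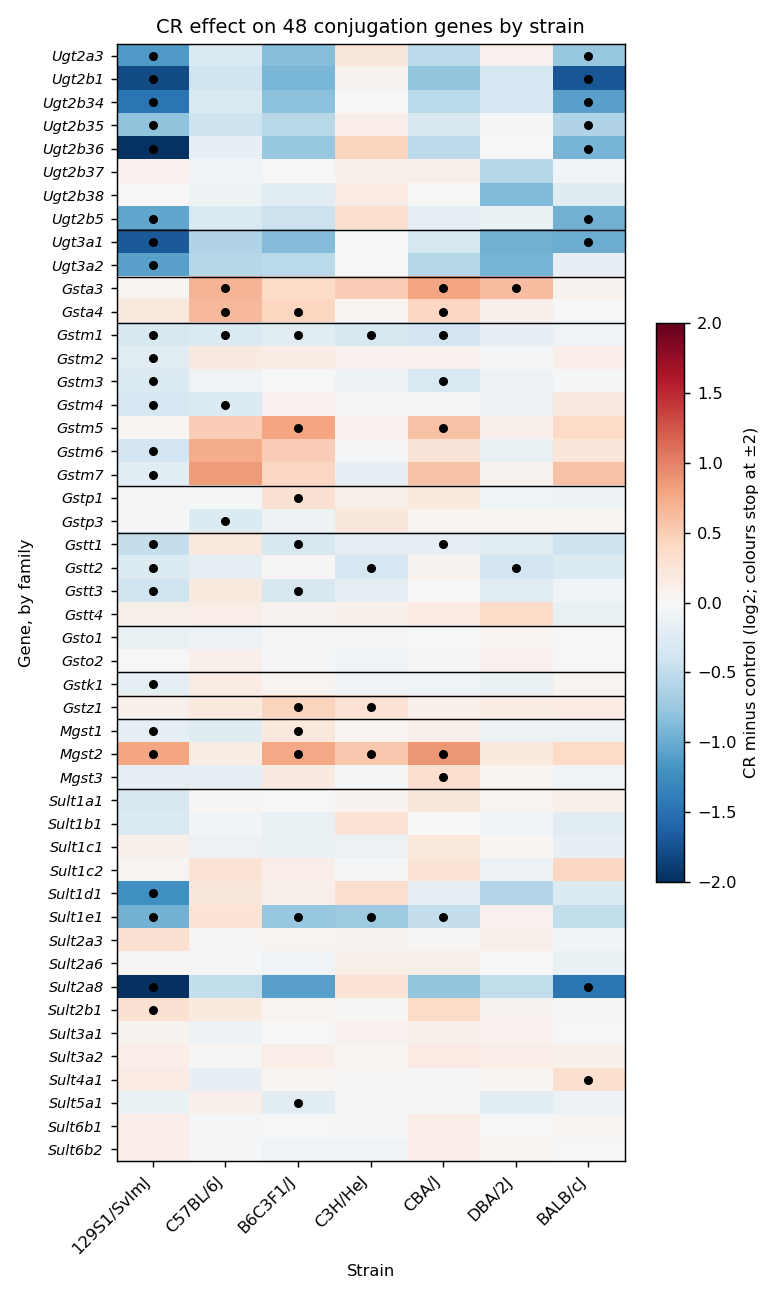
Log2 difference between CR and control for the 48 members (vertical, by family) in 7 strains (horizontal), 8 mice per group; colour gives the difference and a dot an unadjusted limma p under 0.01. Of the 10 Ugt genes 8 are lower at that p in 129S1/SvImJ and 7 in BALB/cJ, Mgst2 is red in every strain, and Gstm1 is blue in every strain.

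Among the UDP-glucuronosyltransferases, Ugt2b1, which acts on phenols and steroids, changed most. In 129S1/SvImJ its lowest, median and highest signals were 4.88, 6.70 and 8.83 in control mice and 4.58, 5.05 and 5.45 in CR mice. In BALB/cJ they were 5.83, 7.98 and 8.52 against 5.08, 6.06 and 7.08, and in C3H/HeJ 4.72, 6.20 and 6.83 against 4.99, 5.69 and 7.42. Control mice of 129S1/SvImJ thus ran from the level of the CR mice up to far above it, and the groups overlapped in each strain. Across strains Ugt2b1 fell by 0.84 on the log2 scale (SE 0.18, 1.79-fold, adjusted p = 4.7e-05), with lower means in 6 of 7 strains.

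Ugt3a1 and Ugt3a2 belong to a small group that uses sugars other than glucuronic acid. Ugt3a1 ran from 4.53 through a median of 6.01 to 6.67 in 129S1/SvImJ control mice and from 3.67 through 4.04 to 4.34 in the CR mice, with no overlap. Elsewhere the groups overlapped. In C57BL/6J the control signals were 4.22, 4.38 and 8.05 and the CR signals 4.10, 4.46 and 4.89, so the medians were close while the highest control mouse lay far above all CR mice. Across strains Ugt3a1 fell by 0.78 (SE 0.15, adjusted p = 3.1e-06) and Ugt3a2 by 0.55 (SE 0.12, adjusted p = 6.9e-05). Ugt2b34 fell by 0.65, Ugt2b36 by 0.56, Ugt2a3 by 0.46, Ugt2b5 by 0.39 and Ugt2b35 by 0.37, with adjusted p from 0.00038 to 0.011. Ugt2b37 and Ugt2b38 differed by -0.06 and -0.18 and were not called. No Ugt gene differed between strains in its CR effect (adjusted p 0.10 or above), while without the 8 arrays of high epididymis signal Ugt2b37 and Ugt2b38 did (adjusted p = 0.013 and 0.022). Without these arrays Ugt2b38 was also called lower across strains (-0.20, SE 0.09, adjusted p = 0.049).

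The Ugt signals moved with the hepatocyte markers from mouse to mouse. Over the 112 arrays, after each group was centred on its mean, Pearson's r with the mean of the 9 hepatocyte markers was 0.94 for Ugt2b36, 0.92 for Ugt2b1, 0.91 for Ugt2a3, 0.90 for Ugt2b34, 0.81 for Ugt2b5, 0.79 for Ugt2b35 and 0.78 for Ugt3a1. It was 0.92 for Sult2a8 and 0.68 for Sult1d1. These are descriptions over arrays that share 1 normalisation. It was -0.07 for Mgst2, -0.04 for Gstm1, 0.08 for Gsta4, 0.01 for Sult1e1 and 0.42 for Gsta3.

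**Figure D2:**
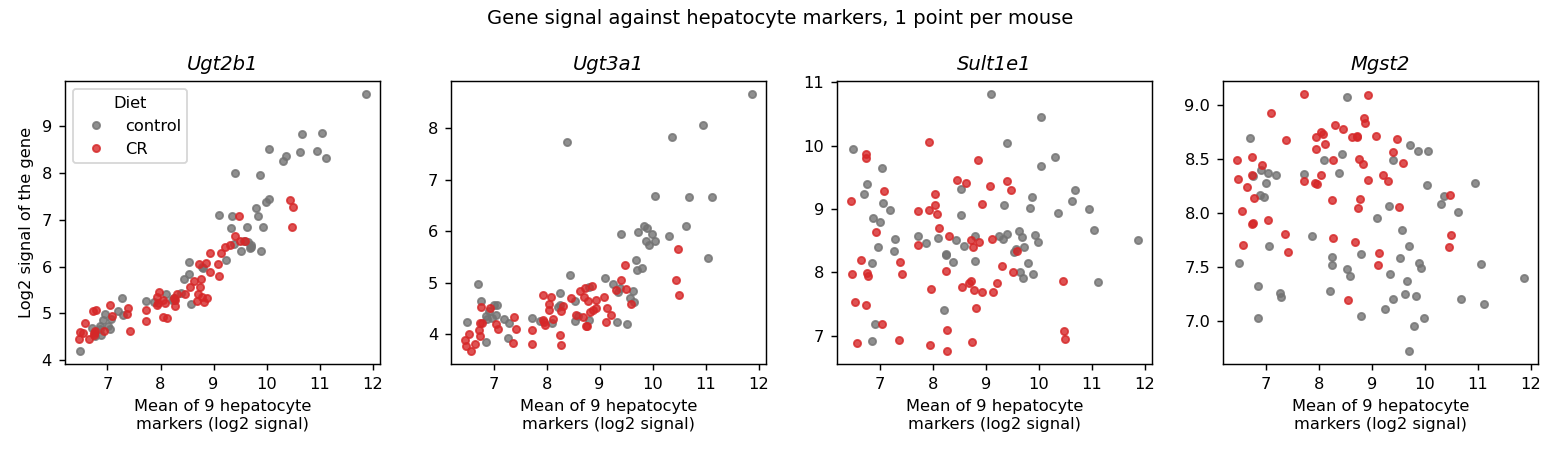
Log2 signal of Ugt2b1, Ugt3a1, Sult1e1 and Mgst2 (vertical) against the mean log2 signal of 9 hepatocyte markers (horizontal), 1 point per mouse, control mice in grey and CR mice in red. Ugt2b1 climbs with the markers (within-group r 0.92), while Sult1e1 (0.01) and Mgst2 (-0.07) do not.

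With the hepatocyte marker mean as a term in the model, an alternative added after the data were seen, 4 of the 10 Ugt genes were lower on CR. Ugt3a1 was then at -0.42 (SE 0.10, adjusted p = 0.00013), Ugt2b1 at -0.32 (SE 0.08, adjusted p = 0.00032), Ugt3a2 at -0.25 and Ugt2b34 at -0.20, while Ugt2b36 was at 0.00 and Ugt2a3 at -0.03. On the arrays at or below the median of the markers no Ugt gene was called (Ugt2b1 -0.19, SE 0.11; Ugt3a1 -0.32, SE 0.16). That subset held 1 BALB/cJ control array and called 16.9% of all genes, against 41.2% with the term. The 3 rises called on it were Gsta3 at 0.57 (SE 0.10), Gsta4 at 0.25 (SE 0.06) and Mgst2 at 0.38 (SE 0.11), and the 1 fall was Gstm1 at -0.22 (SE 0.05). Sult1e1 was at -0.28 (SE 0.19) there and was not called. The subset also held only 2 control arrays against 7 CR arrays of 129S1/SvImJ, and 2 control arrays of B6C3F1/J. Its arrays were picked on the marker mean that most Ugt signals follow. It therefore cannot test the Ugt changes or strain levels apart from these markers.

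**Figure D3:**
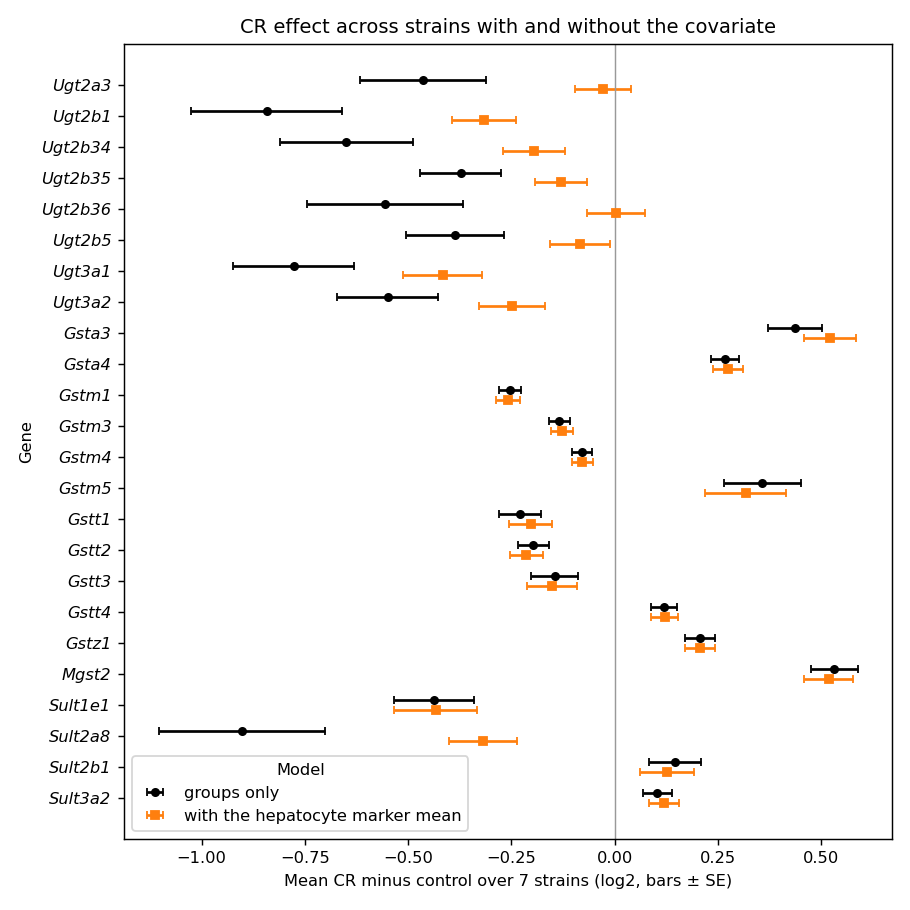
Mean difference between CR and control over 7 strains (horizontal, log2, bars ± SE) for the 24 members called, from the model of groups (black) and with the hepatocyte marker mean added (orange). Ugt2b1 moves from -0.84 to -0.32 and Ugt2b36 from -0.56 to 0.00, while Gsta3, Gsta4, Gstm1, Mgst2 and Sult1e1 keep their side of 0.

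Both alpha-class GSTs were higher on CR. Gsta4, the enzyme that clears 4-hydroxynonenal, had lowest, median and highest signals of 8.01, 8.54 and 8.85 in C57BL/6J control mice and 8.94, 9.14 and 9.32 in the CR mice. In B6C3F1/J they were 8.80, 8.95 and 9.19 against 9.25, 9.40 and 9.57, and in BALB/cJ 10.44, 10.56 and 10.80 against 10.40, 10.63 and 10.75. CR and control mice did not overlap in C57BL/6J and B6C3F1/J and overlapped fully in BALB/cJ. Across strains Gsta4 rose by 0.27 (SE 0.03, 1.20-fold, adjusted p = 4.2e-11), and its CR effect differed between strains (limma F-test, adjusted p = 7.7e-05), from 0.65 (SE 0.10) in C57BL/6J through 0.44 (SE 0.06) in B6C3F1/J and 0.41 (SE 0.09) in CBA/J to 0.00 (SE 0.07) in BALB/cJ.

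Gsta3, which is known for detoxifying aflatoxin epoxide, was called in C57BL/6J, CBA/J and DBA/2J. Its signals in CBA/J were 8.39, 8.88 and 9.51 in control mice and 9.22, 9.61 and 9.88 in CR mice. In C57BL/6J they were 9.25, 9.74 and 10.26 against 9.61, 10.53 and 10.68, where the lowest CR value came from the array with the most epididymis marker signal. The groups overlapped in both strains, in C57BL/6J through that 1 CR mouse, the highest control mouse lying below the other 7. The rise across strains was 0.44 (SE 0.07, 1.35-fold, adjusted p = 9.0e-09), with higher means in all 7 strains, and it was 0.48 without the 8 arrays of high epididymis signal. Its CR effect ran from 0.03 (SE 0.10) in 129S1/SvImJ to 0.79 (SE 0.14) in CBA/J. The limma F-test of that difference gave an adjusted p of 0.054, and 0.0095 without the 8 arrays.

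**Figure D4:**
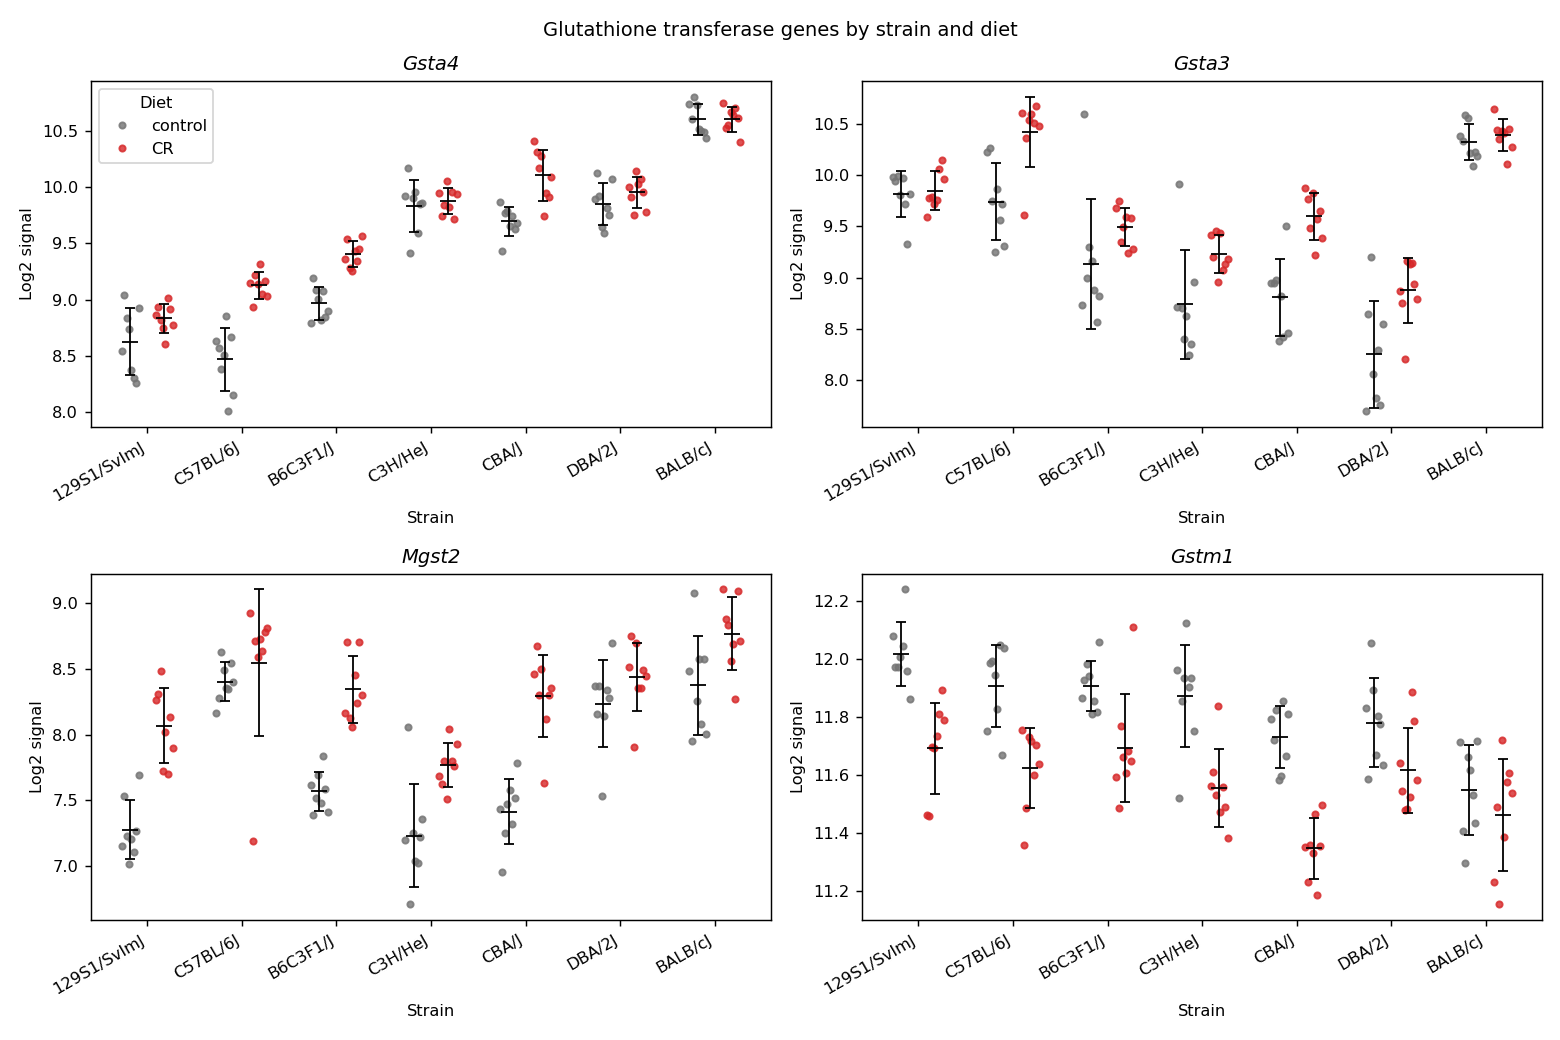
Log2 signal (vertical) of Gsta4, Gsta3, Mgst2 and Gstm1 in each mouse by strain (horizontal), control mice grey and CR mice red, with black bars for the mean ± SD of 8 mice. Gsta4 is lowest in C57BL/6J control mice (mean 8.47) and highest in BALB/cJ (10.60), and Gstm1 means are lower on CR in all 7 strains.

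Mgst2, a membrane enzyme that can make leukotriene C4, had the largest rise of the members. In 129S1/SvImJ its signals were 7.02, 7.22 and 7.69 in control mice and 7.70, 8.08 and 8.49 in CR mice, and in B6C3F1/J 7.39, 7.55 and 7.84 against 8.06, 8.27 and 8.71. Neither pair of groups overlapped. In C57BL/6J the control mice gave 8.16, 8.38 and 8.63 and the CR mice 7.19, 8.72 and 8.92, the lowest again from the array with the most epididymis signal. Mgst2 rose across strains by 0.53 (SE 0.06, 1.44-fold, adjusted p = 2.7e-14) and was called in 129S1/SvImJ, B6C3F1/J, C3H/HeJ and CBA/J, with changes of 0.79, 0.78, 0.54 and 0.88. In C57BL/6J the change was 0.14 (SE 0.19), and 0.34 (SE 0.08, adjusted p = 0.0032) without the 2 arrays of high epididymis signal. The effect differed between strains (adjusted p = 0.014). The within-group r of Mgst2 was 0.54 with the adipocyte markers and -0.55 with the epididymis markers (rho 0.21 and -0.28). Without the 2 arrays farthest in the markers r was 0.25 and -0.33. The part of the adipocyte markers in its rise was not tested. Mgst1, the abundant microsomal GST, and Mgst3 were not called across strains (-0.04 and 0.02).

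Gstm1, a major mu-class GST, was the only member at an unadjusted p under 0.01 in at least 5 strains, which 6.27% of all genes reached. In CBA/J its signals were 11.58, 11.76 and 11.86 in control mice and 11.19, 11.35 and 11.50 in CR mice, with no overlap. In 129S1/SvImJ they were 11.86, 11.99 and 12.24 against 11.46, 11.72 and 11.89, and in BALB/cJ 11.30, 11.57 and 11.72 against 11.16, 11.51 and 11.72. The groups shared nearly their whole range in BALB/cJ and touched at their ends in 129S1/SvImJ. Gstm1 fell by 0.25 across strains (SE 0.03, 1.19-fold, adjusted p = 7.5e-14), with lower means in all 7 strains, and a difference of this effect between strains was not called (adjusted p = 0.17).

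The rest of the mu class went both ways. Gstm3 fell by 0.13 and Gstm4 by 0.08 (SE 0.03 and 0.02), while Gstm5 rose by 0.36 (SE 0.09, adjusted p = 0.00086). The within-group r of Gstm5 was 0.45 with the epididymis markers and -0.44 with the macrophage markers (rho 0.13 and -0.39). Without the 2 arrays farthest in each marker mean r was 0.30 and -0.45. The part of these markers in the rise of Gstm5 was not tested. The CR effect on Gstm4 differed between strains (adjusted p = 1.5e-05). In 129S1/SvImJ its signals were 10.66, 10.82 and 10.94 in control mice and 10.39, 10.44 and 10.61 in CR mice, and in BALB/cJ 10.03, 10.10 and 10.57 against 10.26, 10.31 and 10.49. The groups were apart in 129S1/SvImJ, with CR lower, and in BALB/cJ the CR median was the higher one. The strain changes were -0.35 (SE 0.05) in 129S1/SvImJ, -0.28 (SE 0.06) in C57BL/6J and 0.19 (SE 0.08) in BALB/cJ, the last not called. Gstm6 and Gstm7 were not called across strains (0.17, SE 0.14; 0.31, SE 0.18). Over the arrays their within-group r with the epididymis markers was 0.62 and 0.61, with a Spearman's rho of 0.22 and 0.34, and without the 2 arrays farthest in the markers r was 0.40 and 0.41. They reached 10.21 and 12.29 on the C57BL/6J CR array named above, but also 9.06 and 11.55 on a B6C3F1/J CR array with an epididymis marker mean of 4.96. Without the 8 arrays their changes were 0.08 and 0.17.

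In the theta class, Gstt1, which acts on small halogenated compounds, fell by 0.23 (SE 0.05, adjusted p = 6.1e-05) and Gstt2 by 0.20 (SE 0.04, adjusted p = 5.5e-06). Gstt1 signals in 129S1/SvImJ were 10.78, 10.98 and 11.05 in control mice and 10.11, 10.40 and 10.91 in CR mice, which overlapped only at the upper end of the CR mice. In C57BL/6J Gstt1 went the other way, at 0.21 and not called. Without the 2 arrays of high epididymis signal it was called higher there (0.37, SE 0.07, limma adjusted p = 0.00091). The limma F-test of its strain difference gave an adjusted p of 0.063, and 0.0058 without the 8 arrays of high epididymis signal. Gstt3 fell by 0.15 and Gstt4 rose by 0.12. Gstt3 had a within-group r of 0.76 with the epididymis markers (rho 0.35, and r 0.46 without the 2 farthest arrays). It was at -0.24 (SE 0.04) with their mean as a term, -0.20 (SE 0.03) without the 8 arrays of high epididymis signal, and -0.03 and not called on the arrays low in hepatocyte markers. Gstz1, which isomerises maleylacetoacetate in tyrosine breakdown, rose by 0.21 (SE 0.04, adjusted p = 3.5e-07), with higher means in all 7 strains. Its C3H/HeJ signals were 11.08, 11.42 and 11.59 in control mice and 11.64, 11.70 and 11.78 in CR mice, with no overlap. The within-group r of Gstz1 was 0.77 with the adipocyte markers and -0.61 with the epididymis markers (rho 0.51 and -0.32). Without the 2 farthest arrays r was 0.52 and -0.29. The part of the adipocyte markers in its rise was not tested. Gsto1 and Gsto2 (-0.04 and 0.00), Gstk1 (-0.03), Gstp1 (0.05) and Gstp3 (0.00) were not called across strains. With the hepatocyte markers as a term Gstp1, whose within-group r with them was 0.43, was called higher (0.097, SE 0.03, adjusted p = 0.0073). Gstk1, a mitochondrial and peroxisomal GST, and Gstp1 nonetheless differed between strains in their CR effect (adjusted p = 0.0095 and 0.038). Gstk1 was at -0.19 (SE 0.05) in 129S1/SvImJ and 0.15 (SE 0.07) in C57BL/6J, and Gstp1 at 0.30 (SE 0.10) in B6C3F1/J and -0.11 (SE 0.07) in BALB/cJ.

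Among the sulfotransferases, Sult1e1, the estrogen sulfotransferase, fell by 0.44 across strains (SE 0.10, 1.35-fold, adjusted p = 6.5e-05). Its signals in B6C3F1/J were 8.27, 8.47 and 8.60 in control mice and 6.85, 7.79 and 8.44 in CR mice. In 129S1/SvImJ they were 7.40, 8.53 and 9.31 against 6.75, 7.64 and 7.98, and in C57BL/6J 7.19, 8.56 and 9.01 against 7.76, 8.81 and 9.46. CR mice were the lower group in the first pair and slightly the higher one in C57BL/6J, always with overlap. The CR effect differed between strains (adjusted p = 0.044), from -0.95 (SE 0.26) in 129S1/SvImJ, -0.75 (SE 0.18) in B6C3F1/J, -0.73 (SE 0.25) in C3H/HeJ and -0.48 (SE 0.14) in CBA/J to 0.27 (SE 0.25) in C57BL/6J. The fibroblast and progenitor markers were also lower on CR, 8 of the 9 by limma, with a median change of -0.32. Their mean lay between 9.48 and 10.46 over the control mice and between 9.06 and 9.98 over the CR mice, and the within-group r of Sult1e1 with it was 0.40 (rho 0.42, and r 0.44 without the 2 farthest arrays). Their part in the change of Sult1e1 was not tested.

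Sult2a8, of the hydroxysteroid and bile acid class, had the largest fall of all members, by 0.90 (SE 0.20, 1.87-fold, adjusted p = 7.8e-05). Its signals in 129S1/SvImJ were 3.78, 6.19 and 8.11 in control mice and 3.39, 3.84 and 4.74 in CR mice. With the hepatocyte markers as a term its change was -0.32 (SE 0.08), and on the arrays low in them -0.13 (SE 0.12, not called). Sult2b1, which sulfates cholesterol, rose by 0.15 (SE 0.06, adjusted p = 0.049), with 4 of its highest signals (7.49 to 7.88) on arrays of high epididymis signal. Without those arrays its rise was 0.08 (adjusted p = 0.021), and with the hepatocyte or the epididymis marker mean as a term it was not called (adjusted p = 0.12 and 0.37). The rise of Sult3a2 was 0.10 at group medians of 2.31 to 2.67, near the bottom of the scale. The other 12 Sult genes, among them the phenol sulfotransferase Sult1a1 at 0.03, were not called. Of these, Sult5a1 was called lower with the hepatocyte or the epididymis marker mean as a term (-0.11 and -0.14) and without the 8 arrays of high epididymis signal (-0.10), and Sult4a1 higher with the epididymis term (0.08, adjusted p = 0.049).

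Within strains, calls at an unadjusted p under 0.01 fell unevenly. In 129S1/SvImJ, 24 of 48 members were called, 2 higher and 22 lower, against 28.6% of all genes (14.4% higher, 14.2% lower). At an adjusted p under 0.05 it was 2 higher and 24 lower, against 32.2% of all genes. The methods' t-test on the raw scale called 14 members there (27.2% of all genes), and 9 were called with the epididymis marker mean as a term (22.1% of all genes). No array of this strain was high in epididymis signal. The epididymis marker mean lay between 4.77 and 5.10 in its control mice and between 4.96 and 5.30 in its CR mice. It thus varied little and partly with diet, and the part of epididymis carry-over in the calls of this strain was not tested. The 22 were 8 Ugt genes, 10 GST genes including 6 of the 7 mu-class members, Mgst1 and the sulfotransferases Sult1d1, Sult1e1 and Sult2a8. Mgst2 and Sult2b1 were the 2 higher. With the hepatocyte markers as a term 8 members were called in this strain, against 14.5% of all genes. Mgst2 was higher and Gstm3, Gstm4, Gstt1, Gstt2, Mgst1, Mgst3 and Sult1a1 were lower. The hepatocyte marker mean itself averaged 9.50 in control and 7.25 in CR mice of this strain. The term thus takes up part of the diet difference, and the part of these markers in the 22 falls was not tested.

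In BALB/cJ, 9 of 48 members were called, 1 higher and 8 lower, where 1.58% of all genes were (0.627% higher, 0.958% lower), and none passed an adjusted p under 0.05, nor did any of the 19938 genes. By limma 12 members were under an unadjusted p of 0.05 there, a cutoff for which no share over all genes was computed. The 8 lower were Sult2a8 and 7 Ugt genes, with Ugt2b5 at -0.96 (SE 0.16, unadjusted p = 7.3e-06, adjusted p = 0.15) and Ugt2b1 at -1.71 (SE 0.35). Ugt2b5 signals in BALB/cJ were 4.65, 5.49 and 5.65 in control mice and 3.84, 4.36 and 4.93 in CR mice. The hepatocyte marker mean lay between 8.53 and 10.63 in the control mice and between 7.72 and 9.47 in the CR mice of this strain. With it as a term, Ugt2b5 (-0.64, SE 0.16), Ugt2b1 (-0.71, SE 0.24) and Sult4a1 (0.41, SE 0.13) were called, against 0.411% of all genes. Here too the marker mean differed by diet (9.74 in control and 8.78 in CR mice), so the term takes up part of the diet difference.

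No Ugt gene was called in the other 5 strains. With the hepatocyte markers as a term Ugt3a2 was called in C57BL/6J (-0.52, SE 0.17) and DBA/2J (-0.80, SE 0.23), and Ugt2b35 in C57BL/6J (-0.38, SE 0.11). B6C3F1/J had 6 members higher (16.5% of all genes) and 5 lower (14.4%), 30.9% of all genes being called in either direction. CBA/J had 5 higher (8.52%) and 4 lower (12.3%), with 20.9% in either direction. C57BL/6J had 2 higher (9.80%) and 3 lower (7.82%), with 17.6% in either direction, and C3H/HeJ 2 (9.26%) and 3 (7.44%), with 16.7%. DBA/2J had Gsta3 higher (3.15%) and Gstt2 lower (2.88%), with 6.04% in either direction. No member there passed an adjusted p under 0.05 (0.888% of all genes). By limma 6 members were at an unadjusted p under 0.05, again without a share over all genes at that cutoff. The calls in C57BL/6J were Gsta3 and Gsta4 higher and Gstm1, Gstm4 and Gstp3 lower. Without its 2 arrays of high epididymis signal 10 members were called there (22.1% of all genes), with Gstm5, Gstm6, Gstt1, Gstz1 and Mgst2 added on the higher side.

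The 8 CR and 8 control mice of a strain did not overlap for 3 members in 129S1/SvImJ (7.73% of all genes), 2 in C57BL/6J (4.49%), 4 in B6C3F1/J (12.6%), 1 in C3H/HeJ (2.34%), 2 in CBA/J (7.09%), 0 in DBA/2J (0.206%) and 0 in BALB/cJ (0.00502%). CR was the higher group for Mgst2 in 129S1/SvImJ and B6C3F1/J, Gsta4 in C57BL/6J and B6C3F1/J, Gstz1 in B6C3F1/J and C3H/HeJ, and Gstm5 in B6C3F1/J and CBA/J. It was the lower group for Gstm4 in 129S1/SvImJ and C57BL/6J, Gstm1 in CBA/J and Ugt3a1 in 129S1/SvImJ.

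The CR effect differed between strains for 9 of 48 members (19.0% of all genes). These were Gsta4, Gstk1, Gstm4, Gstp1, Gstt2, Gstt4, Mgst1, Mgst2 and Sult1e1, and all but Sult1e1 are glutathione transferases. Mgst1 was lower on CR in 129S1/SvImJ (-0.18, SE 0.05) and higher in B6C3F1/J (0.20, SE 0.07). Without the 8 arrays of high epididymis signal 20 members were called (25.5% of all genes).

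The second question was how the strains differed on the control diet. The limma F-test over the 56 control arrays called 33 of 48 members (58.8% of all genes), and over the 56 CR arrays 31 (54.0%). For 27 members both were called (42.8% of all genes). The control means of 18 members spanned more than 1 log2 unit, which 5.84% of all genes did. The median span was 0.68 over the members and 0.29 over all genes. Of the 33 members called, 12 were highest in 129S1/SvImJ and 11 in BALB/cJ, and 10 were lowest in DBA/2J and 9 in C3H/HeJ. The shares of all genes that were highest or lowest in these strains were not computed, so these counts describe the members only.

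**Figure D5:**
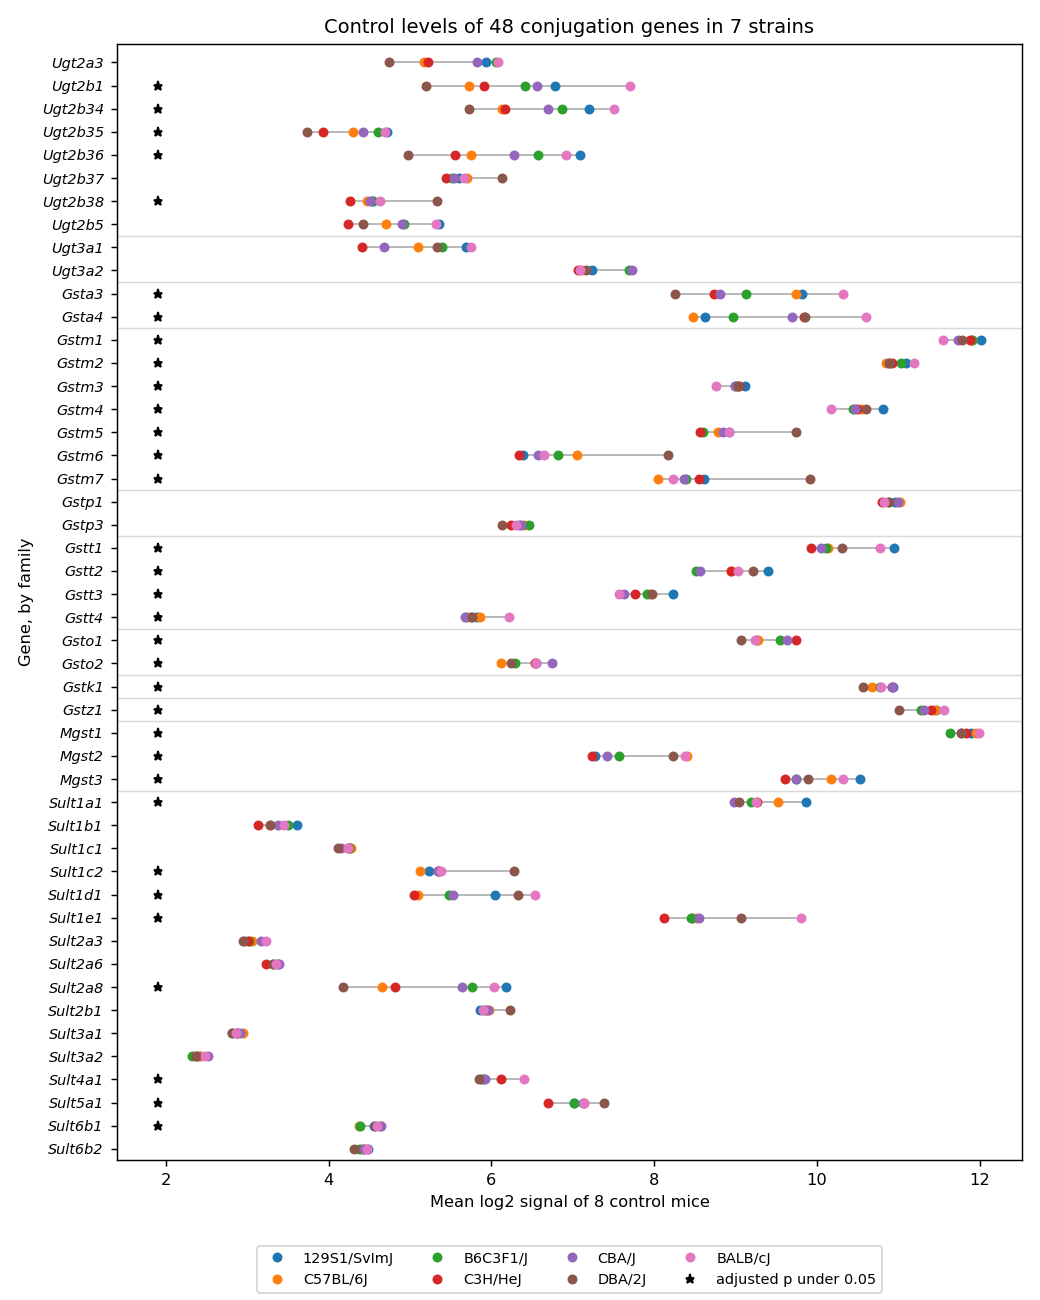
Mean log2 signal (horizontal) of 8 control mice in each of 7 strains (colours) for the 48 members (vertical, by family), with a grey line over the span of the strains and a star at the left edge where the F-test gave an adjusted p under 0.05. Signals compare strains within a gene, not genes with each other. The alpha-class genes Gsta3 and Gsta4 spread over more than 2 log2 units, while Gstm1 and Gstp1 spread over less than 1.

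Gsta4 was ordered from C57BL/6J (8.47 ± 0.28, SD, n = 8) and 129S1/SvImJ (8.63 ± 0.30) through B6C3F1/J (8.97 ± 0.15), CBA/J (9.70 ± 0.13), C3H/HeJ (9.83 ± 0.23) and DBA/2J (9.85 ± 0.19) to BALB/cJ (10.60 ± 0.14), a span of 4.38-fold (adjusted p = 2.8e-25). Of the 21 pairs of strains 17 differed, against 22.2% of such pairs over all genes, and the same 17 differed in the same direction in the CR mice. Pairs not called were C57BL/6J with 129S1/SvImJ and those among CBA/J, C3H/HeJ and DBA/2J. The hybrid B6C3F1/J lay between its parents C57BL/6J and C3H/HeJ and differed from each (adjusted p = 0.00024 and 3.6e-09).

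Gsta3 was lowest in DBA/2J (8.25 ± 0.52), then C3H/HeJ (8.74), CBA/J (8.81), B6C3F1/J (9.13), C57BL/6J (9.74), 129S1/SvImJ (9.82) and BALB/cJ (10.32 ± 0.18), a span of 4.20-fold with 15 of 21 pairs called and 13 of them also in the CR mice. Neighbours in this order did not differ beyond their spread from DBA/2J to C3H/HeJ, from C3H/HeJ to CBA/J, from CBA/J to B6C3F1/J, from C57BL/6J to 129S1/SvImJ, or from there to BALB/cJ. Strains low in Gsta3 were not those low in Gsta4, since C57BL/6J and 129S1/SvImJ had the lowest Gsta4 means. Over the 7 strain means, control and CR levels had a Pearson's r of 0.96 for Gsta4, 0.92 for Gsta3, 0.96 for Gsto1 and 0.96 for Gsto2, given as a description.

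Gsto1, which can reduce dehydroascorbate, ran from 9.07 ± 0.19 in DBA/2J to 9.74 ± 0.19 in C3H/HeJ (12 of 21 pairs called), and Gsto2 from 6.12 in C57BL/6J to 6.75 in CBA/J (12 pairs). Mgst2 ran from 7.23 ± 0.39 in C3H/HeJ to 8.40 ± 0.15 in C57BL/6J. The control means of C3H/HeJ, 129S1/SvImJ, CBA/J and B6C3F1/J lay between 7.23 and 7.57, and those of DBA/2J and BALB/cJ were 8.24 and 8.38. Sult1e1 was highest in BALB/cJ (9.81 ± 0.61) and lowest in C3H/HeJ (8.13 ± 0.55), a span of 3.21-fold (adjusted p = 2.3e-06). BALB/cJ differed from all 6 other strains in Sult1e1. Gstt1, Gstt2, Mgst3 and Sult1a1 were highest in 129S1/SvImJ, at 10.95, 9.40, 10.53 and 9.87.

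The widest control span was that of Ugt2b1, from 5.20 ± 1.33 in DBA/2J to 7.70 ± 0.90 in BALB/cJ (5.66-fold, adjusted p = 0.0072), and Ugt2b36, Ugt2b34 and Sult2a8 had DBA/2J lowest too, with spans of 2.11, 1.78 and 2.00 log2 units. The hepatocyte markers took a like place, with medians over the control mice of 6.98 in DBA/2J, 9.95 in BALB/cJ and 9.86 in 129S1/SvImJ. Only 4 of 21 pairs were called for Ugt2b1, and the F-test called 5 of 10 Ugt genes on the control diet (58.8% of all genes), 6 with the hepatocyte markers as a term (58.1% of all genes) and 0 on the arrays low in them (29.6% of all genes). Gstm5, Gstm6 and Gstm7 were highest in DBA/2J control mice (9.74, 8.17 and 9.91), the control group with 2 arrays of high epididymis signal. Without the arrays of high epididymis signal the span of Gstm7 was 1.14 in place of 1.87 and that of Gstm6 1.15 in place of 1.84.

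Genes that feed, regulate or complement these enzymes were read by list, where 21.9% of all genes were higher on CR and 22.0% lower. Of 17 genes of glutathione synthesis and recycling, 7 were higher on CR and 3 lower, the largest rise being Gclm, the regulatory subunit of the enzyme that starts glutathione synthesis (0.44, SE 0.05), and the largest fall Dpep1, a dipeptidase (-0.37, SE 0.04). Of 17 genes of the Nrf2 pathway, 3 were higher and 7 lower, with Srxn1 (sulfiredoxin) at 0.34 and Hmox1 (heme oxygenase) at -0.41. Nfe2l2, which encodes Nrf2, fell by 0.16 and Keap1, its inhibitor, rose by 0.26, both chosen after their values were seen. Neither list went 1 way.

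For the other donors, Ugp2, which makes UDP-glucose, rose by 0.58 (SE 0.06) among 2 higher and 3 lower of 6 genes of UDP-glucuronic acid supply and removal, where Gusb, the glucuronidase that undoes conjugation, fell by 0.31. Among 11 genes of sulfate donor supply and sulfate removal 3 were higher and 4 lower, with Bpnt1, which clears the by-product of sulfation, at 0.37 and the sulfate transporter Slc26a1 at -0.27. Of 8 exporters of conjugates 2 were higher and 5 lower, with Abcc1 at 0.18 and Abcc2 at -0.53. Of 10 other conjugating enzymes 5 were higher and 4 lower, with the methyltransferases Tpmt at 0.43 and Inmt at -0.65. Of 9 xenobiotic receptors 1 was higher and 2 lower, with Rxra at 0.09 and Nr1i3, the constitutive androstane receptor, at -0.48. Abcc2 (within-group r 0.92), Nr1i3 (0.83) and Slc26a1 (0.81) followed the hepatocyte markers, and with these as a term their changes were -0.15, -0.24 and -0.13, each still called. Acsm1 (r 0.77), Glyat (0.75) and Baat (0.72), genes of amino acid conjugation, went from -0.19, -0.37 and -0.21, all called, to -0.06, -0.08 and -0.08 with that term and were no longer called. It left 4 of the other conjugating enzymes higher and 1 lower.

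Related genes outside the naming rule, 14 in all and not all of them enzymes, were higher in 1 case and lower in 8 (21.9% and 22.0% of all genes). Clic1, Clic4, Clic5 and Alox5ap, which encode no conjugation enzyme, were among the lower ones. Ptges, which makes prostaglandin E2, rose by 0.89 (SE 0.06), and Hpgds, the hematopoietic prostaglandin D synthase and a sigma-class GST, fell by 0.94 (SE 0.06). Of the 17 macrophage markers 16 were lower on CR, and their mean lay between 8.25 and 10.47 over the control mice and between 7.80 and 9.62 over the CR mice. Their part in the change of Hpgds was not tested.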

How the data were processed

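RNA of the epididymal fat pads of 112 mice was hybridised singly to Affymetrix Gene 1.0 ST arrays. The deposited table holds log2 signals per probe set, which the authors made in Affymetrix Expression Console by the RMA-Sketch method at gene level (background correction, a shared distribution for the arrays, 1 value from several probes). The version and which arrays were normalised together are not given in the sources used here. Array medians lay between 6.72 and 6.86. Scanner files and scan dates were not analysed here, so background correction and a scan block were not varied. Of 35556 probe sets, 21789 carried 1 gene symbol in the platform annotation, 1621 several and 12146 none listed. They gave 19938 genes, each represented by its brightest probe set. All 48 members matched RefSeq by Entrez identifier.

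limma 3.58.1 in R 4.3.3 was fitted over all genes to 14 groups of strain and diet for the mean CR effect and for its difference between strains, to the 16 arrays of each strain for the effect within it, and to the arrays of 1 diet for strain levels. Adjusted p-values are Benjamini-Hochberg values over all genes, or over all genes and the 21 pairs of strains, with a threshold of 0.05; within strains the unadjusted p under 0.01 of the study's methods was used. Correlations with marker means were taken after centring each group. The code was tested on simulated data. Figures were drawn with matplotlib 3.10.9.

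Members and gene lists were chosen with earlier results of these data known. Named members are the 8 largest rises and falls across strains, members called in at least 5 strains, the 6 smallest p for a strain difference, the 8 widest control spans, the brightest of each family and Ugt2b5; values of Gsto2, Gstm3, Gstp3, Gstt2, Gstt3, Mgst3, Sult1d1, Sult4a1, Ugt2b35, Ugt2b37 and Ugt2b38 and the members named within a count were added after they were seen. The marker means as terms, the subset low in hepatocyte markers and the leaving out of single arrays were chosen after seeing the data. Other settings are in the closing section. The precision is limited by 8 arrays per group.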

Additional observations from a re-analysis of the deposited data

Results flagged for a closer look

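In a Dixon test of single mice in their group of 8, 65 of 378 groups of a named member held a mouse far from the others. The nominal rate of the test is about 1 in 20. The groups share the same mice over members and are not independent, and the share over all genes was not computed. C57BL/6J CR mouse 2 was highest in its group for Gstm5 at 10.50, Gstm6 at 10.21, Gstm7 at 12.29 and Sult2b1 at 7.62 and lowest for Gsta3 at 9.61, Gsto1 at 8.17, Gstt1 at 9.44, Gstz1 at 10.51, Mgst1 at 10.94, Mgst2 at 7.19 and Sult1a1 at 8.34. Its epididymis marker mean was 11.30. B6C3F1/J control mouse 2 was highest in its group for Gsta3 at 10.60, Gstm7 at 8.88, Sult2a8 at 9.35, Ugt2a3 at 9.25, Ugt2b1 at 9.70, Ugt2b34 at 10.06, Ugt2b36 at 9.82, Ugt2b5 at 7.60, Ugt3a1 at 8.66 and Ugt3a2 at 9.85. Its hepatocyte marker mean of 11.87 was the highest of the 112 arrays. CBA/J CR mouse 5 was highest in its group for Gstm6 at 10.16, Gstm7 at 12.28 and Sult2b1 at 7.88 and lowest for Gsto1 at 9.01, Mgst1 at 11.37 and Sult1a1 at 8.62. DBA/2J control mouse 2 was highest in its group for Sult2a8 at 7.20, Ugt2a3 at 6.62, Ugt2b1 at 8.37, Ugt2b34 at 8.26 and Ugt2b36 at 7.73. B6C3F1/J CR mouse 8 was highest in its group for Gstm1 at 12.11, Gstm5 at 11.24, Gstm6 at 9.06 and Gstm7 at 11.55.

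BALB/cJ control mouse 3 was highest in its group for Gstm4 at 10.57, Gstm5 at 9.60 and Gstm7 at 9.48 and lowest for Gstt1 at 9.70. C57BL/6J control mouse 2 was highest in its group for Gstm7 at 8.68, Ugt2b5 at 6.84 and Ugt3a1 at 8.05. CBA/J control mouse 7 was highest in its group for Gstm6 at 7.35, Gstp1 at 11.66 and Ugt2b5 at 6.43. DBA/2J CR mouse 3 was lowest in its group for Gsta3 at 8.21, Mgst2 at 7.91 and Sult1a1 at 8.57. BALB/cJ CR mouse 7 was highest in its group for Gstm5 at 10.73 and lowest for Gstp1 at 10.46. C3H/HeJ control mouse 3 was lowest in its group for Gstp1 at 10.42 and Gstz1 at 11.08. C3H/HeJ control mouse 6 was lowest in its group for Sult1e1 at 6.92 and Ugt3a2 at 5.82. 129S1/SvImJ CR mouse 8 was lowest in its group for Gstp1 at 10.58. 129S1/SvImJ control mouse 7 was lowest in its group for Gsta3 at 9.33. C3H/HeJ control mouse 2 was highest in its group for Gsta3 at 9.91. C3H/HeJ control mouse 8 was highest in its group for Sult2b1 at 6.21. C57BL/6J control mouse 1 was lowest in its group for Gsto1 at 8.70. C57BL/6J control mouse 8 was lowest in its group for Sult1e1 at 7.19. CBA/J control mouse 2 was lowest in its group for Gstz1 at 11.002. DBA/2J CR mouse 6 was highest in its group for Sult2b1 at 7.49. DBA/2J control mouse 3 was highest in its group for Sult2b1 at 7.58. DBA/2J control mouse 4 was lowest in its group for Mgst2 at 7.53.

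The CR effect of 8 named members differed between strains by the limma F-test. The adjusted p was 7.7e-05 for Gsta4, 1.5e-05 for Gstm4, 0.0089 for Mgst1, 0.0095 for Gstk1, 0.014 for Mgst2, 0.028 for Gstt4, 0.038 for Gstp1 and 0.044 for Sult1e1. The Gstt4 effect ran from -0.14 (SE 0.08) in BALB/cJ to 0.38 (SE 0.13) in DBA/2J. The mean of the testis germ cell markers was also highest in the DBA/2J CR group, at 6.97 against 6.14 in the DBA/2J control group. Their part in the Gstt4 effect was not tested.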

How the results depend on the processing

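Log2 values quantile normalised again, centred on the array median or averaged over probe sets left each count of calls within 1.5 times its value. With dim genes removed, 20 of 48 members were left, and no Ugt gene was among them. Across strains 5 were higher and 7 lower, where 69.5% of all genes left were called. In 129S1/SvImJ 12 were called (44.2%), and 19 differed between strains on the control diet (85.7%) and 19 on CR (76.9%). In BALB/cJ 0 were called (1.72%), but the filter had removed every member called there before, 7 Ugt genes, Sult2a8 and Sult4a1. Without the 8 arrays of high epididymis signal 20 members differed between strains in their CR effect (25.5% of all genes) and 10 were called in C57BL/6J (22.1%). With the epididymis marker mean as a term these were 14 (23.1% of all genes) and 8 (23.0%), with 9 called in 129S1/SvImJ (22.1%) and 6 in B6C3F1/J (27.8%). Neither 129S1/SvImJ nor B6C3F1/J had an array of high epididymis signal. With the hepatocyte marker mean as a term 8 were called in 129S1/SvImJ (14.5% of all genes), 3 in BALB/cJ (0.411%) and 4 in DBA/2J (6.48%). On the arrays low in hepatocyte markers 3 members were higher and 1 lower (16.9% of all genes called), and 16 differed between strains on the control diet (29.6%). An adjusted p under 0.05 left 0 in BALB/cJ (0% of all genes) and 0 in DBA/2J (0.888%). In 1 model of 14 groups 7 were called in B6C3F1/J (24.9% of all genes) and 6 in DBA/2J (9.27%). The methods' t-test on the raw scale called 14 in 129S1/SvImJ (27.2% of all genes), 6 in B6C3F1/J (30.4%) and 1 in DBA/2J (6.01%). Leaving out each array in turn gave 20 to 26 calls in 129S1/SvImJ, where 25.7% to 30.6% of all genes were called. In BALB/cJ it gave 8 to 13, with 7 Ugt genes lower each time. The most there came without control mouse 3, where 6.86% of all genes were called. Leaving out any other BALB/cJ array called 0.913% to 3% of all genes.

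The sign of a called fall changed for Ugt2b36 (0.0027 with the hepatocyte term, 0.0092 on the arrays low in the markers) and Ugt2b35 (0.0025 on those arrays). Among members not called across strains it changed for Gstm6 (-0.034 with the epididymis term), Gsto1 (0.016 with that term, 0.00080 without the 8 arrays), Mgst1 (2.1e-05 with that term), Sult1d1 (0.11 with the hepatocyte term), Ugt2b37 (0.034 with it), and Gstp3, Sult1b1, Sult2a6, Sult4a1 and Sult6b1 under at least 1 of these settings. None of the changed values was called, and the cause was not tested. Without BALB/cJ, Ugt2b36 (-0.49) and Ugt2b5 (-0.29) were no longer called.

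Replicate numbers did not pair the mice: same-numbered mice correlated at a median of 0.03 over 56 pairs (-0.36 to 0.55), 18 of them over 0.1, and 8 correlated best with their own number. C3H/HeJ had the most such pairs, 5 of 8 over 0.1 and 3 best with their own number. With the replicate block 8 members were called in C3H/HeJ (17.9% of all genes) and 1 in DBA/2J (4.91%). No other count moved by over 1.5 times. Only 20 of the 48 members had a mean signal above the median of all genes, 7.17, and signals near the bottom of the scale limit what can be read.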
